A study of Mus musculus with 12 samples.

Results

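Atm encodes the large kinase that cells activate when DNA is broken, and the genes described here are Atm itself and the genes whose products work most directly with it. They are the related kinase gene Atr, the checkpoint kinase genes Chek1 and Chek2, the break-binding complex genes Mre11a, Rad50 and Nbn, and the genes of the proteins that gather on chromatin beside a break, H2afx (H2ax in the gene table used), Trp53bp1 and Mdc1. The 10 genes were chosen by name. A probe could be matched to 9 of them, with 17 probes in all, and Mdc1 was not analysed here. All 9 were among the 18429 features tested, of which 12804 were named genes.

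In cells with an intact pathway, the complex of Mre11, Rad50 and Nbs1 (the product of Nbn) binds broken DNA ends and brings Atm there, and Atm phosphorylates histone H2AX around the break. Mdc1 binds that mark and 53BP1 (the product of Trp53bp1) is recruited after it, while Chk2, the product of Chek2, carries the signal to p53 and other targets. Atr answers to single-stranded DNA, above all at stalled replication forks, and acts through Chk1, the product of Chek1. Much of this signalling runs through phosphorylation of proteins that are already present, and the arrays measured mRNA only.

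The mRNA came from mouse embryonic fibroblasts, which are connective tissue cells grown in culture from embryos, labelled ATM-WT or ATM-KO. For each genotype, some cultures received 4.32 Gy and others none, and RNA was collected at 72 h, which gave 4 groups of 3 samples, each on 1 single-colour array. The allele disrupted in ATM-KO cells, the strain, the radiation source and the number of embryos are not stated by any source used here, and the labels do not say that samples of a group came from separate cultures, so each p-value reflects the spread among these samples, which may be technical. No treatment other than irradiation is named for any group. In bulk samples of this kind, fewer cells of a type and less RNA per cell cannot be told apart.

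All values below are log2 spot signal minus that of the array's own 75th percentile, so a value of 0 is the signal of that percentile and a difference of 1 is a fold of 2. Levels of different probes are not comparable with each other, because each probe binds its target with its own strength. The 75th percentile ran from 379 to 757 between arrays, and it was highest in the samples numbered 1 of 3 groups (608 in nonirradiated ATM-WT, 757 in irradiated ATM-WT and 708 in irradiated ATM-KO). All 12 fibroblast markers listed were well above background on every array. Macrophage markers were not equal between the genotypes: the summed signal of the 9 with a probe, relative to the 75th percentile and on a linear scale, was 2.71 to 6.51 in the 6 ATM-WT samples and 0.542 to 0.838 in the 6 ATM-KO samples, against 1470 to 2710 for the fibroblast list. Of these 9 markers, 8 or 9 were well above background in ATM-WT samples and 4 to 8 in ATM-KO samples. ATM-KO sample 1 stood apart from samples 2 and 3. Its muscle markers summed to 5.11 without and 4.97 with irradiation, against 0.599 to 0.862. Epithelial markers summed to 3.98 and 4.54 against 0.545 to 0.972, and neural markers to 11.9 and 7.36 against 2.53 to 2.99. Endothelial markers summed to 0.326 and 0.458 against 0.165 to 0.31. The part of these lists in the values of that sample was not tested. Of the 3 slides, slide 1 held only ATM-WT and slide 3 only ATM-KO samples, and irradiated samples always lay on position 2 or 4 of a slide. Irradiation and array position therefore cannot be told apart.

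The promoters of Atm, Chek1 and Chek2 are shown because the results turn on these kinases. Atm is the gene disrupted. Chek1 and Chek2 are checkpoint kinases whose signal was lower in every irradiated sample than in the nonirradiated sample of the same number. Samples of a genotype with the same number are called pairs here, although no label pairs them, and they lay side by side on the same slide. All 3 pairs of a genotype were lower for 25.7% of all features in ATM-WT and 23.4% in ATM-KO cells. Each promoter runs from 250 bases before the annotated start to 50 after it, 5′ to 3′ on the gene's strand, from RefSeq on GRCm38.p6. Atm lies at chr9:53536622-53536921 on the minus strand, Chek1 at chr9:36726609-36726908 on the minus strand and Chek2 at chr5:110839733-110840032 on the plus strand. Capitals mark CCAAT boxes (read as ATTGG where they lie on the opposite strand) and matches to E2F motifs.
Atm: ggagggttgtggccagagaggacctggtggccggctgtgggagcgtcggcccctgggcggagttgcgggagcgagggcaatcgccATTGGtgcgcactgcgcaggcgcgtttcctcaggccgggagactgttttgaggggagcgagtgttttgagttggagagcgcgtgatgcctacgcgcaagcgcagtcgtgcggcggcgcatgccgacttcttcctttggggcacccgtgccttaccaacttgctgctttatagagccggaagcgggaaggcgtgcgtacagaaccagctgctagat
Chek1: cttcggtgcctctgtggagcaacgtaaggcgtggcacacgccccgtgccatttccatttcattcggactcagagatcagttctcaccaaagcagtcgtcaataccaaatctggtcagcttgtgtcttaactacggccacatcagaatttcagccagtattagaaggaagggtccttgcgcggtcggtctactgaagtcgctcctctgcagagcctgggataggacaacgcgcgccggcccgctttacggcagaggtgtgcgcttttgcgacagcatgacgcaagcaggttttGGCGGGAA
Chek2: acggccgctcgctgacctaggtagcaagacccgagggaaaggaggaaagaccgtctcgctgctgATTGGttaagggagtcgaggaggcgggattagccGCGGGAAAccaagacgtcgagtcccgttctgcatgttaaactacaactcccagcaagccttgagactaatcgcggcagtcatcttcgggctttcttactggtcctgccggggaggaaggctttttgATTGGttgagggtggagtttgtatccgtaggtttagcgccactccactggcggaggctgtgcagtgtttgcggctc

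The E2F motif, bound by factors that drive genes of S phase, was searched on both strands as TTTGGCGC, TTTCGCGC, TTTCCCGC or TTTGCCGC, and 2.26% of 32851 mouse promoters of the same length held at least 1 copy. A further form, GGCGGGAA, overlaps these when read on the other strand. It was added after the Chek1 window had been read and was present in 2.19% of promoters. The Chek1 window held that added form at base 43 after the start and no copy of the first 4. The Chek2 window held an E2F match 152 bases before the start on the opposite strand, along with CCAAT boxes on the opposite strand 186 and 26 bases before it. The Atm window held no E2F match, 1 CCAAT box on the opposite strand 165 bases before the start, and 1 GC box (GGGCGG) 196 bases before it. CCAAT was found in 37.4% and GGGCGG in 35.7% of promoters. No window of these 3 held the cell cycle element TTTGAA, present in 17.9% of promoters, and all of these are matches of letters and not measured binding sites. The start of Atm lies 376 bases from that of Npat, a histone gene regulator transcribed in the other direction, and the windows of the 2 genes overlap by 125 bases. Atm, Atr, Chek1, H2ax and Mre11a are all on chromosome 9.

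After irradiation none of the 9 genes passed the test in either genotype. In limma with Benjamini-Hochberg adjustment at 0.05, 0 of 9 were called in ATM-WT cells, where 0.445% of all features were, and 0 of 9 in ATM-KO cells, where 0.00543% were. At an unadjusted p under 0.05 the counts were 0 of 9 in ATM-WT and 1 of 9, H2ax, in ATM-KO cells, beside 6.46% and 7.93% of all features. The median difference of the 9 genes was 0.03 in ATM-WT and 0.00 in ATM-KO cells, beside medians of -0.02 and -0.05 over all features. The test had limited reach: of features given a known change in simulated data for irradiation in ATM-WT cells, 11.9% were recovered at a log2 change of 1 and 77.6% at 2. Irradiated and nonirradiated samples with the same number deviated together from their group means in each genotype, so a fit with these pairs as blocks was also made. It called 2.26% and 2.05% of all features after irradiation in ATM-WT and ATM-KO cells, and again 0 of the 9 genes in each.

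**Figure D1:**
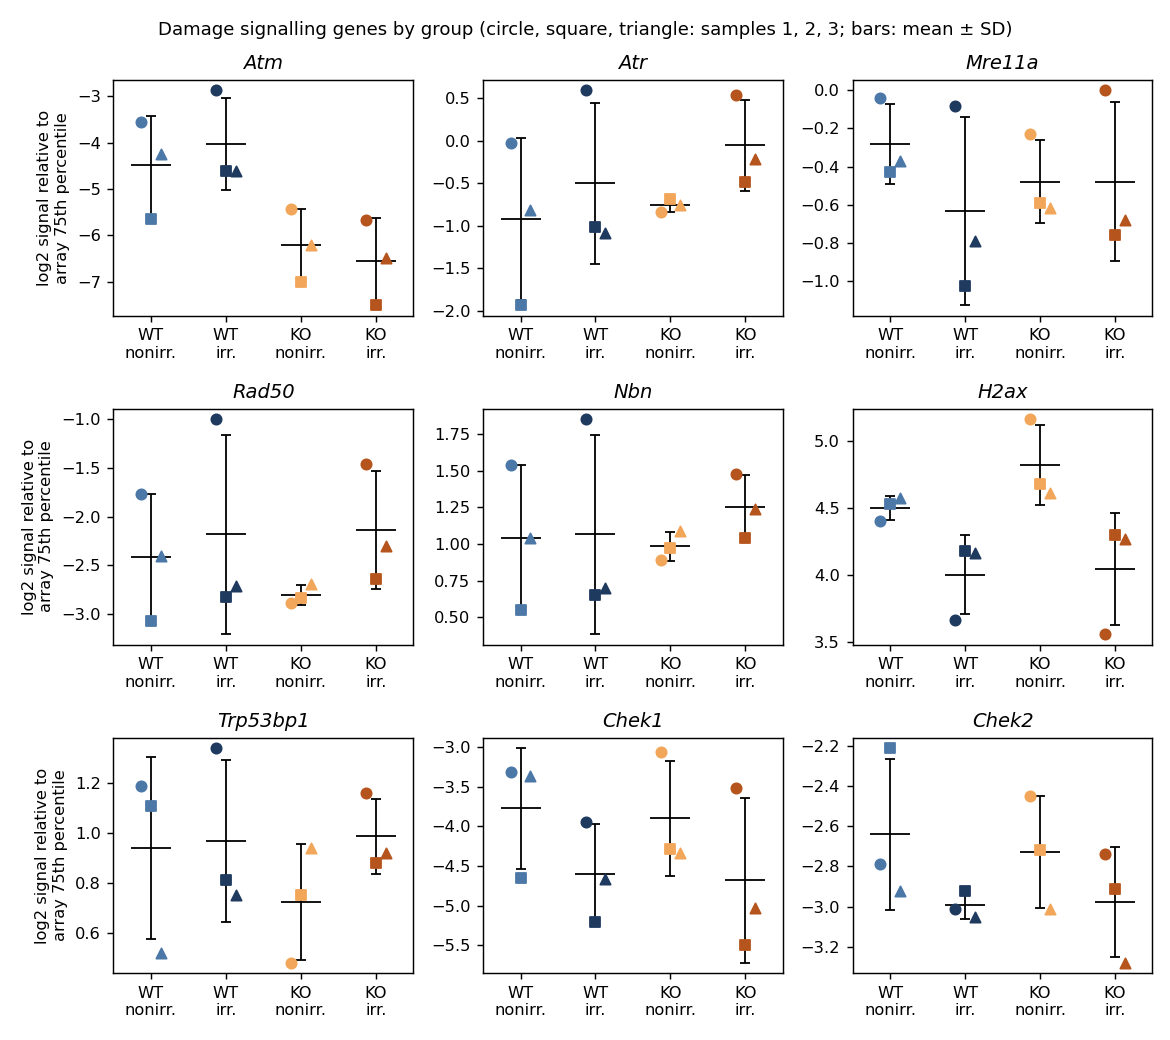
Log2 signal above or below the array's 75th percentile for the 9 genes (vertical axes, a separate scale for each gene), by group. Circles, squares and triangles are the samples numbered 1, 2 and 3, and bars are the mean ± SD. Atm lies at -5.43 or lower in all ATM-KO samples, and also in nonirradiated ATM-WT sample 2 (-5.65). H2ax is lower in every irradiated sample than in every nonirradiated sample of its genotype, as for 5.7% of all features in ATM-WT and 10.4% in ATM-KO cells.

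Atm signal lay near background on these arrays, and its mean was lower in ATM-KO cells in both treatments, a difference that did not pass the limma test in either. The brighter of its 2 probes read -3.55, -5.65 and -4.25 in nonirradiated ATM-WT samples 1, 2 and 3 and -2.87, -4.60 and -4.60 in irradiated ones. ATM-KO samples gave -5.43, -7.01 and -6.20 without and -5.66, -7.50 and -6.48 with irradiation. The lowest ATM-WT value, nonirradiated sample 2, lay below the highest nonirradiated ATM-KO value, so the nonirradiated groups overlapped, while the irradiated groups did not, as for 3.72% of all features with ATM-KO lower. The probe was well above background in 2 of 3 nonirradiated and 3 of 3 irradiated ATM-WT samples, and in 0 of 3 and 1 of 3 ATM-KO samples.

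The second Atm probe, printed as 10 spots on each array, also had a lower mean in ATM-KO cells in both treatments. Spots of 1 array are repeats on 1 sample and add no samples, and the nonirradiated groups overlapped by this probe too. The mean of its spots was -4.31, -6.29 and -5.21 in nonirradiated ATM-WT samples and -3.29, -5.73 and -4.52 in irradiated ones. The ATM-KO values were -5.52, -6.86 and -6.87 without irradiation and -6.44, -6.50 and -6.34 with it. In ATM-WT samples 1 and 3, at least 8 of the 10 spots were well above background, whether irradiated or not, and in ATM-WT sample 2 at most 1 was, as in every ATM-KO sample. Spots of 1 array spread with an SD of 0.09 to 0.823, and the widest values belong to faint arrays. Whether either probe lies in the disrupted stretch of the gene is not stated by any source used here.

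**Figure D2:**
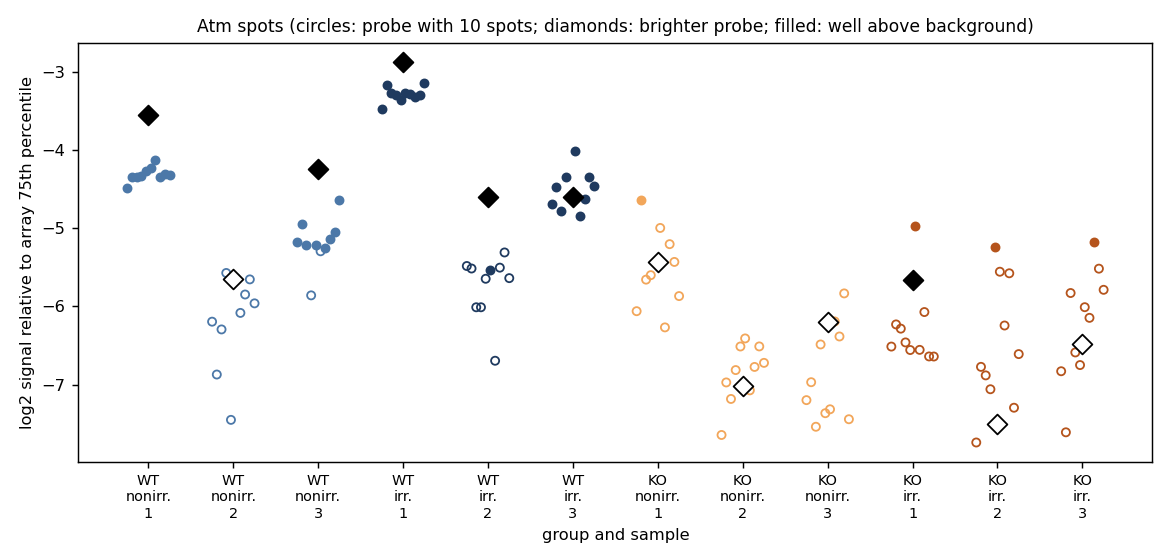
Log2 signal of each Atm spot relative to the array's 75th percentile (vertical axis) on the 12 arrays (horizontal axis). Circles are the 10 spots of 1 probe and diamonds the single spot of the brighter probe, and filled symbols are spots well above background. In ATM-WT samples 1 and 3 nearly all symbols are filled, and in ATM-KO samples at most 1 circle per array is.

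In nonirradiated cells the Atm difference, ATM-KO minus ATM-WT, was -1.73 ± 0.658 (SE, n = 3 per group, 95% interval -3.16 to -0.30), which did not pass the test (limma, adjusted p = 0.475). Because no ATM-KO array was well above background there, the fold of the means was also taken with ATM-KO arrays raised to the background limit. It was 1.96 by the brighter probe and 1.14 by the second, whose measured difference was -1.15. That fold allows for faint ATM-KO signal and not for the spread among samples. ATM-WT sample 2 was itself not well above background there. In irradiated cells the difference was -2.52 ± 0.658 (95% interval -3.95 to -1.09), which did not pass either (adjusted p = 0.225). Atm was among the genes tested because this probe was well above background in all 3 irradiated ATM-WT samples, the higher group of that comparison, so tests that use this group are not independent of the filter on dim probes. The second probe gave -1.91 there, with a fold of 2.44 when the ATM-KO arrays were raised to the background limit. Irradiated samples with the same number also deviated together across the genotypes, so the number was also used as a block. The irradiated difference then had a standard error of 0.255 and passed the test (limma, adjusted p = 0.00286), in a fit that called 0.76% of all features. Without the samples numbered 1 that value was -2.39 ± 0.335 (limma with that block, adjusted p = 0.0196). No label pairs samples, within or across genotypes. That fit used the same standard error for both treatments, and nonirradiated same-numbered samples did not deviate together across genotypes (correlations -0.218 to 0.178).

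Averaged over both treatments, a contrast added after the data were seen, the Atm difference was -2.13 ± 0.465 on the log2 scale, or 4.37-fold lower in ATM-KO cells by measured signal, with 5 of 6 ATM-KO values not well above background (95% interval -3.14 to -1.12). It passed the test (limma, adjusted p = 0.0333), as did 2.41% of all features, in a fit that treats the irradiated and nonirradiated samples of a pair as unrelated. With the pairs as a random block (estimated correlation 0.58) the standard error was 0.513 and it did not pass (limma, adjusted p = 0.0933). Both fits use the irradiated ATM-WT samples, so neither is independent of the filter on dim probes. An exact permutation test over the 3 pairs of each genotype, with the 2 samples of a pair kept together, gave a two-sided p = 0.1 for the brighter probe, the smallest p that its 20 arrangements allow, and p = 0.2 for the second probe, whose mean difference was -1.53. Background correction bears on these faint signals: with normexp correction the differences were -0.95 without and -0.29 with irradiation. On slide 2, which held 1 sample of each group, they were -1.19 and -1.07, and with slide as a term, which largely follows genotype, they were -0.73 ± 0.850 (adjusted p = 0.964) and -1.52 ± 0.850 (adjusted p = 0.689). Leaving out all samples numbered 1 gave -1.66 and -2.39.

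The ATM-KO samples also had less macrophage marker signal. In nonirradiated cells 8 of 8 tested markers were called lower (median difference -4.03), where 0.857% of all features were called. In irradiated cells 4 of 8 were (median -3), where 0.206% of all features were called. Some of these markers were well above background on as few as 7 of the 12 arrays. Such markers entered the test through the ATM-WT groups, so these counts are not independent of the filter on dim probes. The part of the macrophage signal in the Atm difference was not tested. Npat, whose promoter window overlaps that of Atm, differed between genotypes by 0.23 ± 0.455 without and 0.38 ± 0.455 with irradiation (adjusted p = 0.994 and 1).

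Atm was not called after irradiation in either genotype, and both 95% intervals held 0. The difference was 0.46 ± 0.658 in ATM-WT cells (95% interval -0.97 to 1.89) and -0.33 ± 0.658 in ATM-KO cells (-1.76 to 1.1). Pair by pair, it was 0.68, 1.05 and -0.35 in ATM-WT and -0.23, -0.49 and -0.28 in ATM-KO cells by the brighter probe. The second probe gave 1.02, 0.56 and 0.69 in ATM-WT and -0.92, 0.36 and 0.53 in ATM-KO cells, with means of 0.76 and -0.01. In ATM-WT cells the second probe was thus higher in all 3 pairs and the brighter probe in 2 of 3. The difference between the genotypes' responses was -0.79 ± 0.930 (limma, adjusted p = 1). The sign of the brighter probe's difference turned in both genotypes with normexp correction, to -0.55 in ATM-WT and 0.11 in ATM-KO cells. By likeness over the 12 arrays, the genes whose centred values lay closest to those of Atm were Agtr2, Cdh8 and Sema5a, at root mean square differences of 0.505, 0.519 and 0.519, beside a median of 1.45 over all tested features and an SD of 1.39 for Atm itself.

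Atr, the kinase for single-stranded DNA, was well above background on all 12 arrays and did not differ by genotype beyond its spread. It read -0.03, -1.93 and -0.81 in ATM-WT samples without irradiation and 0.59, -1.02 and -1.08 with it. Nonirradiated ATM-KO samples showed -0.84, -0.68 and -0.76, and irradiated ones 0.54, -0.49 and -0.21. The irradiated ATM-KO values all lay above the nonirradiated ones, which was also true of 6.7% of all features in that direction. The difference was 0.70 ± 0.517 in ATM-KO cells (95% interval -0.42 to 1.83, adjusted p = 0.831) and 0.42 ± 0.517 in ATM-WT cells (-0.70 to 1.54, adjusted p = 1). ATM-KO pair 1 carried most of it, at 1.38 beside 0.18 and 0.55. A second probe on all 12 arrays gave 0.81 and 0.56, and another was above background on 3 arrays. Between genotypes Atr differed by 0.16 ± 0.517 without and 0.45 ± 0.517 with irradiation, with 95% intervals of -0.96 to 1.29 and -0.68 to 1.57.

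No gene of the break-binding complex passed the test after irradiation or between genotypes. Mre11a, the nuclease subunit, read -0.04, -0.43 and -0.37 in nonirradiated ATM-WT samples and -0.08, -1.03 and -0.79 in the irradiated ones, and -0.23, -0.59 and -0.62 then 0.00, -0.76 and -0.68 in ATM-KO samples. Its irradiation difference was -0.35 ± 0.303 in ATM-WT (95% interval -1.01 to 0.31) and 0.00 ± 0.303 in ATM-KO cells (-0.66 to 0.66). The second Mre11a probe gave -0.38 and 0.40. In 3 of 3 ATM-WT pairs Mre11a was lower after irradiation, as 25.7% of all features were.

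Rad50, the coiled-coil subunit that tethers DNA ends, read -1.77, -3.07 and -2.40 without and -1, -2.83 and -2.71 with irradiation in ATM-WT cells. ATM-KO samples gave -2.89, -2.84 and -2.69 without and -1.46, -2.64 and -2.30 with irradiation. As with Atr and 6.7% of all features, all irradiated ATM-KO values lay above the nonirradiated ones, with most of the distance in pair 1 (1.43, beside 0.20 and 0.39). The difference was 0.67 ± 0.489 in ATM-KO (95% interval -0.39 to 1.74, adjusted p = 0.83) and 0.23 ± 0.489 in ATM-WT cells (-0.83 to 1.30, adjusted p = 1).

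Nbn, whose product is the regulatory subunit that binds Atm, read 1.54, 0.55 and 1.04 in ATM-WT samples without irradiation and 1.85, 0.65 and 0.70 with it. The ATM-KO values were 0.89, 0.97 and 1.09 without irradiation and 1.48, 1.04 and 1.24 with it. The groups overlapped in every comparison. The irradiation difference was 0.03 ± 0.347 in ATM-WT (95% interval -0.73 to 0.78) and 0.27 ± 0.347 in ATM-KO cells (-0.48 to 1.03), and the second probe gave 0.04 and 0.44. Of the 36 pairs of the 9 genes, the closest in centred values over the 12 arrays were Mre11a and Nbn, at a root mean square difference of 0.277, then Atr and Rad50 at 0.29 and Nbn and Trp53bp1 at 0.297. Sample 1 of nonirradiated ATM-WT, irradiated ATM-WT and irradiated ATM-KO, the 3 arrays with the highest 75th percentiles, was the highest of its group for Atr, Mre11a, Rad50 and Nbn, and the part of array signal in that likeness was not tested. By their brightest probes, genotype differences of the complex genes ran from -0.39 ± 0.489 (Rad50, nonirradiated) to 0.19 ± 0.347 (Nbn, irradiated). The second Mre11a probe, well above background on all 12 arrays, gave -0.67 ± 0.305 between nonirradiated genotypes (95% interval -1.33 to -0.01), which did not pass the test (limma over all probes, adjusted p = 0.683).

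H2ax, the gene of the histone variant that Atm phosphorylates beside breaks, read lower after irradiation in both genotypes, without passing the test in either. It read 4.40, 4.53 and 4.57 in nonirradiated ATM-WT samples and 3.66, 4.18 and 4.16 in the irradiated ones. Nonirradiated ATM-KO samples showed 5.16, 4.68 and 4.61, and irradiated ones 3.56, 4.3 and 4.27. Within each genotype the groups did not overlap, and the lowest irradiated value of each was sample 1. The difference was -0.50 ± 0.275 in ATM-WT (95% interval -1.09 to 0.10, adjusted p = 0.95) and -0.78 ± 0.275 in ATM-KO cells (-1.37 to -0.18, adjusted p = 0.456), and neither passed the test. Features whose irradiated group lay wholly below the nonirradiated one made up 5.7% of all features in ATM-WT and 10.4% in ATM-KO cells. The mean of both genotypes, added after the data were seen, was -0.64 ± 0.194 (95% interval -1.06 to -0.21), or 1.55-fold lower, with an adjusted p of 0.14, and 0.0593 with pairs as blocks. H2ax was lower in 6 of 6 pairs, by -0.73, -0.35 and -0.41 in ATM-WT and -1.6, -0.39 and -0.34 in ATM-KO cells. All 3 pairs of a genotype were lower for 25.7% of all features in ATM-WT and 23.4% in ATM-KO cells. Only 1 probe measured it, and whether that probe also binds other H2A genes is not stated by any source used here.

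Nonirradiated cells also separated by genotype for H2ax: every nonirradiated ATM-KO value lay above every ATM-WT value, as for 8.29% of all features, and the difference was 0.32 ± 0.275 (95% interval -0.28 to 0.92, adjusted p = 0.994). In irradiated cells it was 0.04 ± 0.275.

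Trp53bp1, whose product directs repair of breaks toward end joining, was not called in any comparison. It read 1.19, 1.11 and 0.52 without and 1.34, 0.81 and 0.75 with irradiation in ATM-WT cells. ATM-KO samples gave 0.48, 0.75 and 0.94 without and 1.16, 0.88 and 0.92 with irradiation. By this probe the groups overlapped throughout. The irradiation difference was 0.03 ± 0.266 in ATM-WT (95% interval -0.55 to 0.61) and 0.26 ± 0.266 in ATM-KO cells (-0.32 to 0.84), and the second probe gave -0.08 and 0.14. The genotype differences were -0.22 ± 0.266 and 0.02 ± 0.266. The second probe was well above background on all 12 arrays. Without irradiation it gave -3.58, -3.30 and -3.56 in ATM-WT and -3.93, -3.83 and -3.78 in ATM-KO samples. The difference was -0.37 ± 0.215, which did not pass the test (limma over all probes, adjusted p = 0.886).

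**Figure D3:**
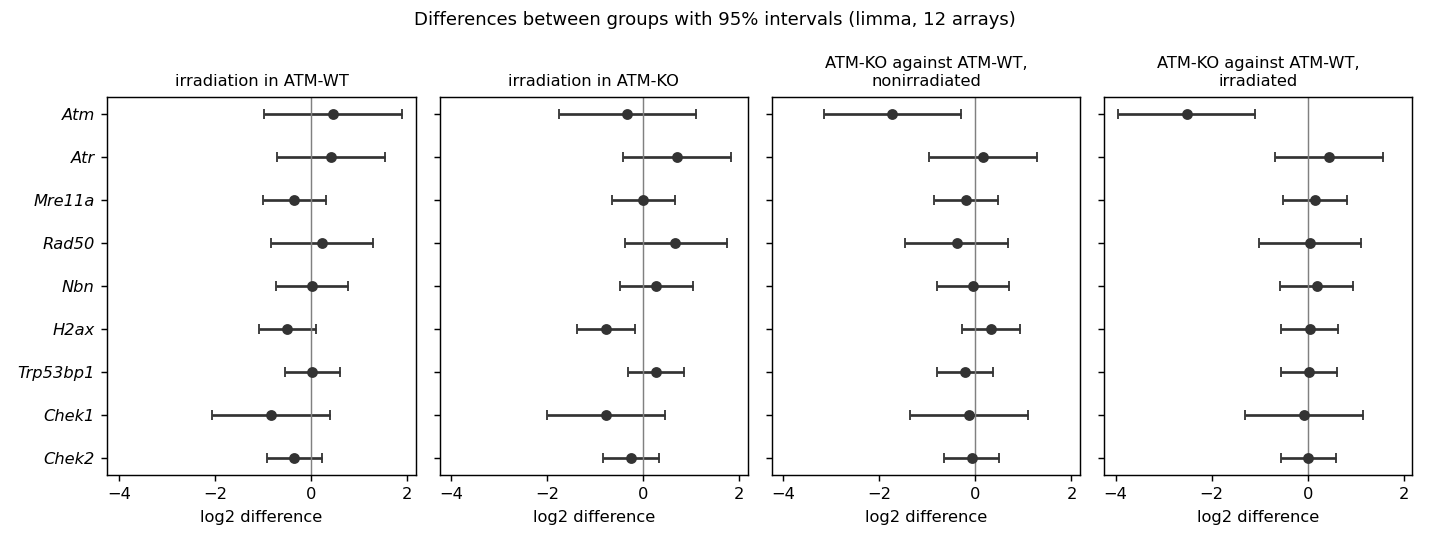
Log2 differences of the 9 genes (points) with 95% intervals from limma over 12 arrays (bars), for irradiation in each genotype and for ATM-KO minus ATM-WT in each treatment. The intervals of Atm lie below 0 in both genotype panels (-1.73 and -2.52), and that of H2ax lies below 0 for irradiation in ATM-KO cells (-0.78). None of these differences passed the limma test.

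Chek1, the kinase that acts below Atr, was lower after irradiation in all 6 pairs. It read -3.31, -4.65 and -3.36 in ATM-WT samples without irradiation and -3.94, -5.21 and -4.67 with it. The ATM-KO values were -3.06, -4.29 and -4.34 without irradiation and -3.51, -5.50 and -5.03 with it. The groups overlapped because samples of a group differed by more than 1 log2 unit, with sample 1 highest in every group, while the differences within pairs all pointed down. They were -0.63, -0.56 and -1.31 in ATM-WT and -0.45, -1.21 and -0.68 in ATM-KO cells. All 3 pairs were lower for 25.7% of all features in ATM-WT and 23.4% in ATM-KO cells.

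The Chek1 difference was -0.84 ± 0.567 in ATM-WT (95% interval -2.07 to 0.40, adjusted p = 1) and -0.78 ± 0.567 in ATM-KO cells (-2.01 to 0.46, adjusted p = 0.83). With pairs as blocks the standard error was 0.225 and the adjusted p was 0.108 and 0.113. The mean of both genotypes, added after the data were seen, was -0.81 ± 0.401 (1.75-fold lower, adjusted p = 0.415). With pairs as blocks that mean had a standard error of 0.159 and passed the test (adjusted p = 0.0161), and without the samples numbered 1 it did not (-0.94 ± 0.174, adjusted p = 0.0569). No other gene of the 9 was called by that fit, which called 10.3% of all features and 5.45% as lower. A second, fainter probe was above background on 8 of 12 arrays and gave -1.30 ± 0.74 in ATM-WT and -0.44 ± 0.74 in ATM-KO cells. The response did not differ between genotypes beyond its error (0.06 ± 0.801, 95% interval -1.68 to 1.80). Genotype differences were -0.13 ± 0.567 without and -0.07 ± 0.567 with irradiation. The fainter probe gave 0.12 ± 0.740 and 0.98 ± 0.740, the opposite sign. The genes most like Chek1 over the 12 arrays were Parpbp, Cenpi and Mlf1, at root mean square differences of 0.253, 0.259 and 0.263, beside a median of 0.914 over all tested features.

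Chek2, the kinase that acts below Atm, moved less but in the same direction in every pair. All 3 pairs of a genotype were lower for 25.7% of all features in ATM-WT and 23.4% in ATM-KO cells. Chek2 read -2.79, -2.21 and -2.92 in nonirradiated ATM-WT samples and -3.01, -2.92 and -3.05 in the irradiated ones. Nonirradiated ATM-KO samples showed -2.45, -2.72 and -3.01, and irradiated ones -2.74, -2.91 and -3.28. The groups overlapped by 1 sample in ATM-KO cells and touched in ATM-WT cells, where nonirradiated sample 3 and irradiated sample 2 both read -2.92. The difference was -0.35 ± 0.263 in ATM-WT (95% interval -0.92 to 0.23) and -0.25 ± 0.263 in ATM-KO cells (-0.83 to 0.32), with adjusted p of 1 and 0.887. Between genotypes it was -0.08 ± 0.263 without and 0.01 ± 0.263 with irradiation. A fainter second probe was above background on 3 arrays.

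Genes that mark dividing cells were lower in the same pairs. Of 23 proliferation markers, 23 in ATM-WT and 22 in ATM-KO cells had a negative difference. Their medians were -0.79 and -0.89, beside -0.02 and -0.05 over all features, and 0 passed the limma test in either genotype. With pairs as blocks 6 and 10 were called lower, in fits that called 2.26% and 2.05% of all features in either direction. The summed linear signal of the list was 177 to 202 in nonirradiated and 105 to 121 in irradiated ATM-WT samples, and 178 to 320 and 113 to 123 in ATM-KO samples. Ccnb1, the mitotic cyclin, differed by -1.21 ± 0.460 and -1.12 ± 0.460, and with pairs as blocks it was called in both genotypes (standard error 0.184, adjusted p = 0.012 and 0.0234). Without the samples numbered 1 that call held in ATM-WT (adjusted p = 0.0458) and not in ATM-KO cells (adjusted p = 0.0922). Mcm2, a subunit of the replication helicase, differed by -0.69 ± 0.229 and -0.85 ± 0.229, and Mki67, a nuclear protein gene of dividing cells, by -0.90 ± 0.660 and -0.37 ± 0.660. The part of these markers' difference in the lower Chek1, Chek2 and H2ax signal was not tested.

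**Figure D4:**
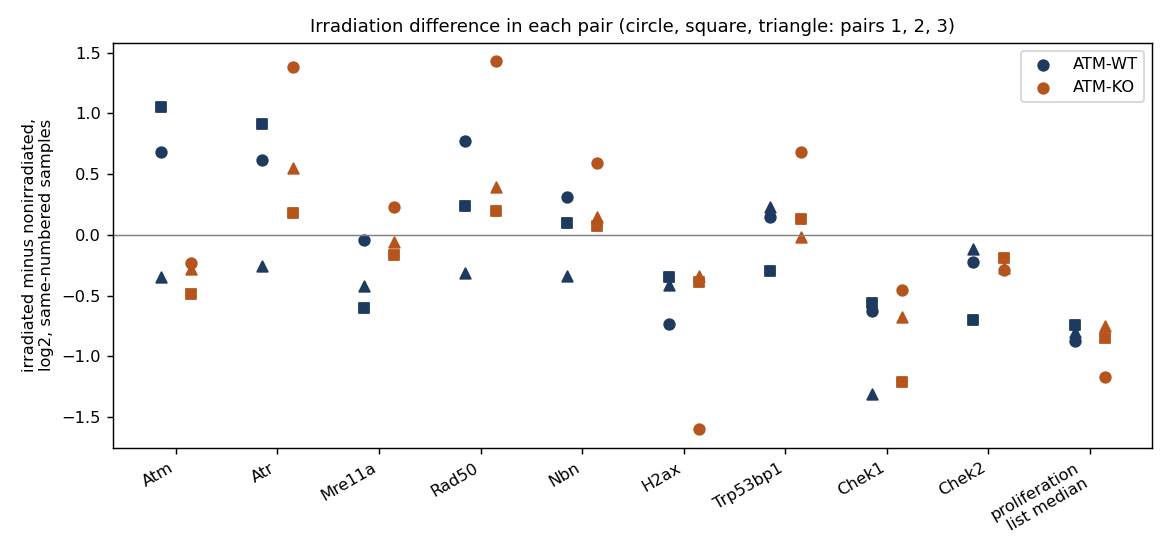
Irradiated minus nonirradiated log2 signal (vertical axis) in each same-numbered pair for the 9 genes and for the median of 23 proliferation markers, ATM-WT in blue and ATM-KO in orange. Circles, squares and triangles are pairs 1, 2 and 3. H2ax, Chek1, Chek2 and the proliferation median are below 0 in all 6 pairs. All 3 pairs of a genotype were lower for 25.7% of all features in ATM-WT and 23.4% in ATM-KO cells.

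The difference of the irradiation responses between genotypes, ATM-KO minus ATM-WT, was called for 0 of 9 genes by limma and for 0.00543% of all features, and 0 of 9 had an unadjusted p under 0.05, beside 0.901% of all features. It ran from -0.79 ± 0.930 (Atm) to 0.44 ± 0.692 (Rad50), and no interval left out 0. Between genotypes 0 of 9 genes were called in nonirradiated cells, where 0.857% of all features were, and 0 of 9 in irradiated cells, where 0.206% were. At an unadjusted p under 0.05 the count was 1 of 9 in each, and the gene was Atm, beside 7.52% and 5.23% of all features. The 8 genes other than Atm differed by genotype by -0.39 to 0.45.

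No gene of a wider list of damage signalling genes passed the test. Of 44 genes listed, 43 had a probe and 42 were tested (Bard1 was too dim). By limma 0 of 42 were called in each of the 5 comparisons, 5 of 42 had an unadjusted p under 0.05 after irradiation in each genotype, beside 6.46% and 7.93% of all features, and 0 of 42 had in the other 3. Their median irradiation difference was -0.04 in ATM-WT and -0.15 in ATM-KO cells. With pairs as blocks 1 and 2 of them were called, beside 2.26% and 2.05% of all features, and without the samples numbered 1 that fit called 0 in each.

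The largest irradiation differences of the list lay among checkpoint effectors, of which 11 were tested. Cdkn1a, which encodes the p53-induced cell cycle inhibitor p21, read 4.06, 4.66 and 4.40 without and 4.95, 5.70 and 5.42 with irradiation in ATM-WT cells. ATM-KO samples gave 4.70, 5.15 and 4.59 without and 4.88, 5.86 and 5.48 with irradiation. The groups overlapped in ATM-KO cells and not in ATM-WT cells. Its difference in ATM-WT cells was 0.98 ± 0.313 (adjusted p = 0.401), and with pairs as blocks the standard error was 0.193 and the gene was called (adjusted p = 0.0354, and 0.0666 without the samples numbered 1). In ATM-KO cells it was 0.59 ± 0.313, with pairs of 0.18, 0.71 and 0.89, and the difference between the genotypes, -0.39, was not called.

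Mdm2, the p53-induced gene whose product restrains p53, had a higher mean after irradiation in both genotypes. The groups did not overlap in either genotype. In ATM-KO cells this held for 6.7% of all features with irradiated samples higher, and the share for ATM-WT cells is not given here. Mdm2 read 1.71, 1.93 and 1.65 in ATM-WT samples without irradiation and 2.96, 2.50 and 2.74 with it, and 1.80, 2.01 and 1.49 then 3.75, 2.72 and 2.56 in ATM-KO samples. The difference was 0.97 ± 0.313 in ATM-WT (adjusted p = 0.421) and 1.24 ± 0.313 in ATM-KO cells (adjusted p = 0.256). With pairs as blocks the ATM-KO value had a standard error of 0.257 and was called (adjusted p = 0.0488, and 0.143 without the samples numbered 1), and the ATM-WT value was not (adjusted p = 0.105).

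Cdc25c, the phosphatase that promotes entry into mitosis and that Chk1 and Chk2 restrain, read -2.09, -2.06 and -3.20 in nonirradiated ATM-WT samples and -2.96, -3.47 and -3.58 in the irradiated ones. The ATM-KO values were -1.5, -2.28 and -2.66 without irradiation and -2.79, -3.98 and -3.41 with it. There the groups did not overlap, as for 10.4% of all features with irradiated samples lower. The difference was -1.25 ± 0.414 in ATM-KO cells (adjusted p = 0.404), called with pairs as blocks (standard error 0.252, adjusted p = 0.0445, and 0.201 without the samples numbered 1), and -0.88 ± 0.414 in ATM-WT cells. Wee1, the kinase that opposes Cdc25, and Mdm4, a partner of Mdm2, gave the largest genotype differences of this role in irradiated cells, -0.31 ± 0.271 and -0.29 ± 0.265. In nonirradiated cells these were Cdkn1a, at 0.44 ± 0.313, and Plk3, at 0.41 ± 0.506.

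**Figure D5:**
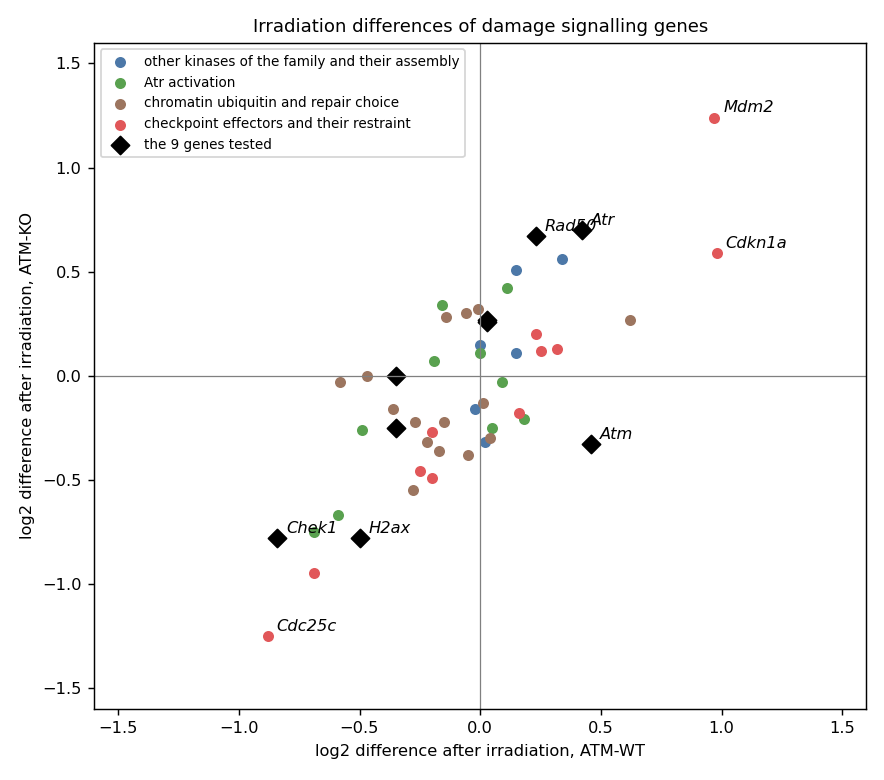
Log2 difference after irradiation in ATM-WT (horizontal axis) and ATM-KO cells (vertical axis) for 42 other damage signalling genes, coloured by role, and for the 9 genes tested (black diamonds). Mdm2 (0.97 and 1.24) and Cdkn1a (0.98 and 0.59) lie at the upper right, and Cdc25c (-0.88 and -1.25), Chek1 (-0.84 and -0.78) and H2ax (-0.50 and -0.78) at the lower left.

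Among the 10 tested genes that activate Atr, Timeless, a fork protection gene, and Rad1, a subunit of the checkpoint clamp, had the largest irradiation differences. Timeless differed by -0.69 ± 0.254 in ATM-WT and -0.75 ± 0.254 in ATM-KO cells (adjusted p = 0.556 and 0.415), and Rad1 by -0.59 ± 0.231 and -0.67 ± 0.231 (adjusted p = 0.614 and 0.44). Each was lower in all 6 pairs, beside 25.7% of all features lower in all ATM-WT pairs and 23.4% in all ATM-KO pairs. In nonirradiated cells the largest genotype differences of this role were Topbp1, an Atr activator, at -0.50 ± 0.503, and Clspn, the Chk1 adaptor claspin, at 0.43 ± 0.558.

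Of the 15 chromatin ubiquitin and repair choice genes tested, 12 in ATM-WT and 10 in ATM-KO cells had a negative difference after irradiation, with medians of -0.15 and -0.16. Rif1, a partner of 53BP1, at 0.62 ± 0.593, and Brca1, at -0.58 ± 0.613, were the largest in ATM-WT cells. Mad2l2, a subunit of shieldin, at -0.55 ± 0.297, and Kat5, the acetyltransferase Tip60 that acts on Atm, at -0.38 ± 0.272, were the largest in ATM-KO cells. By genotype, Abraxas1 differed by -0.50 ± 0.426 in nonirradiated and Rbbp8, which encodes the end resection factor CtIP, by 0.48 ± 0.415 in irradiated cells.

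No gene of the other kinases of the family passed the test. Of the 6 genes of this role tested, Smg1, the nonsense-mediated decay kinase, differed after irradiation by 0.34 ± 0.522 in ATM-WT and 0.56 ± 0.522 in ATM-KO cells, and Prkdc, the catalytic subunit of DNA-dependent protein kinase, by 0.15 ± 0.608 and 0.51 ± 0.608. ATM-KO pair 1 carried both, at 1.5 and 1.56, with the other pairs between -0.07 and 0.23. Genotype differences of these 6 genes ran from -0.12 to 0.34.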

How the data were processed

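RNA of 12 samples was hybridised to single-colour Agilent mouse arrays. Per the file headers, the authors' deposited scanner files hold spot intensity from Feature Extraction 10.7.1.1, already background-subtracted, while the submitters' processing notes name version 11.0, a difference not resolved here. A matrix of log2 values was also deposited. Over 41174 matched probes it followed log2 processed signal minus each array's 75th percentile, centred on each probe's median (lowest r 0.9975, column medians -0.427 to 0.27), and it was used as an alternative.

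Spots of a probe were averaged on the log2 scale after control spots and outlier flags were left out, and each array's 75th percentile was subtracted. Probes carry accessions, which were named through a RefSeq gene table: 25097 of 41174 matched, for 17305 genes. A gene was represented by its brightest probe and tested when, in 1 or more groups, that probe was well above background in all 3 samples. A probe counted as well above background on an array when the greater part of its spots did. Files use mm9, so the only coordinates printed are those of the promoter table on GRCm38.p6.

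A group-means model over 12 arrays was fitted with limma 3.58.1 in R 4.3.3 with Benjamini-Hochberg adjustment over 18429 features at 0.05. The spread of each gene was estimated over all groups together (8 residual degrees of freedom, 4.13 added by eBayes). The procedure was tested on simulated data. For a fold with arrays raised to the background limit, each array of the dim group took the faintest signal counted as well above background on it. It kept its own signal if brighter, and the other group kept its measured values. Array signal stands in for depth, and the number of arrays limits precision.

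Deviations of same-numbered samples from their group means correlated at 0.481 to 0.852 in ATM-WT and 0.269 to 0.509 in ATM-KO irradiation pairs, and at 0.217 to 0.628 between genotypes in irradiated cells, so these comparisons were also fitted with the pairs as blocks. Between nonirradiated genotypes only 1 of 3 correlations passed 0.1 (-0.218 to 0.178). The labels state no pairing, so all pairs rest on the sample numbers and on these correlations.

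The 10 genes, the other lists and the tests were chosen with earlier results of these data known. Named are all 10 genes, any listed damage signalling gene called and otherwise the largest 2 differences of each role, Mki67, Ccnb1 and Mcm2, and the 3 most alike genes of Atm and of Chek1. Npat was named outside this rule, after its values were seen. Alternatives were normexp correction (offset 50), quantile normalization, the authors' matrix, other filters, separate probes, replicate and slide terms, fits of only the groups compared, leaving out arrays, and, added after the data were seen, leaving out all samples numbered 1, also with replicate blocks, and the means over genotypes or treatments, the latter also with the pairs as a random block (duplicateCorrelation).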

Additional observations from a re-analysis of the deposited data

How the results depend on the processing

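Signal over background, the number of arrays and the slide layout limit these values: Atm lay near background, 3 samples a group leave wide intervals, and slide 2 alone held both genotypes. The count of the 9 genes called stayed at 0 for irradiation in each genotype and for the difference of the responses under every alternative run on it, and Chek1 was called only for the mean of both genotypes with the replicate block. It was 1 for each genotype comparison, the gene being Atm, with the number as a replicate block and for the mean of both treatments, and 0 for that mean with the pairs as a random replicate block. With the number as a block the Atm difference passed the limma test at -1.73 ± 0.255 in nonirradiated cells (adjusted p = 0.00941), where the numbers do not pair the samples. In irradiated cells it passed at -2.52 ± 0.255 (limma with that block, adjusted p = 0.00286), although no label pairs samples across genotypes. As a mean of both treatments, added after the data were seen, it passed without a block at -2.13 ± 0.465 (limma, adjusted p = 0.0333). For that mean with the random block it did not pass (-2.13 ± 0.513, limma, adjusted p = 0.0933). Atm passed the filter on dim probes only through irradiated ATM-WT samples, so tests that use them are not independent of that filter. With the number as a block and without the samples numbered 1, Atm was again the 1 gene called in each, at -1.66 ± 0.335 (adjusted p = 0.0403) and -2.39 ± 0.335 (adjusted p = 0.0196). Within slide 2 the irradiated Atm difference was -1.07, and leaving out 1 array at a time gave -2.32 to -1.27 in nonirradiated and -2.96 to -1.95 in irradiated cells. With the pairs as a replicate block, 1 other damage signalling gene was called in ATM-WT and 2 in ATM-KO cells, Ccnb1 was called in both, and the block changed no other call of a named gene within a genotype. Without the samples numbered 1 that block called 0 other damage signalling genes in each genotype, and Ccnb1 in ATM-WT cells alone. The cause of the changes below was not tested.

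Counts of all features called moved more. For irradiation in ATM-WT cells 82 were called, against 44 with normexp, 44 with only the groups compared, 139 with slide as a term, 167 without the samples numbered 1, 417 with the replicate block (109 without the samples numbered 1), and 49 to 101 with 1 array left out. In ATM-KO cells 1 was called, against 378 with the block (0 without the samples numbered 1) and 0 to 2 with 1 array left out. Between nonirradiated genotypes 158 became 62 with normexp, 103 without the filter, 87 with the strict filter, 34 with slide as a term, 315 (1.71%) with the block (1909 without the samples numbered 1), 1580 without the samples numbered 1, and 57 to 225 with 1 array left out. Between irradiated genotypes 38 became, in the same order, 13, 20, 15, 3, 140 (1240), 1044 and 3 to 106, and 23 with only the groups compared. The difference of responses gave 1, against 0 to 4.

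Signs turned for small differences. With normexp correction the irradiation difference was -0.55 (Atm) and -0.19 (Rad50) in ATM-WT and 0.11 (Atm) and 0.02 (Mre11a) in ATM-KO cells, and the difference of responses was 0.66 for Atm. With it the genotype differences were -0.06 (Atr) and 0.06 (Nbn) without irradiation, and -0.03 (Rad50), -0.02 (H2ax), -0.05 (Trp53bp1) and 0.17 (Chek1) with it. Quantile normalization gave 0.03 for Chek1 between irradiated genotypes. Slide as a fixed term gave genotype differences in nonirradiated cells of 0.29 (Mre11a), 0.16 (Rad50), 0.20 (Nbn), 0.07 (Trp53bp1), 0.70 (Chek1) and 0.35 (Chek2), and in irradiated cells of -0.15 (H2ax) and 0.75 (Chek1). Without the samples numbered 1, with or without the replicate block, irradiation in ATM-WT cells gave -0.03 (Rad50), -0.12 (Nbn) and -0.04 (Trp53bp1), and the difference of responses 0.01 (H2ax) and -0.01 (Chek1). Without them, again with or without the block, the genotype differences were 0.24 (Nbn) and 0.03 (Trp53bp1) in nonirradiated cells and -0.11 (Chek2) in irradiated cells.

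With 1 array left out at a time, irradiation differences in ATM-WT cells ran from -0.12 to 0.93 (Atm), -0.13 to 0.87 (Atr), -0.36 to 0.56 (Rad50), -0.37 to 0.27 (Nbn) and -0.18 to 0.15 (Trp53bp1), and in ATM-KO cells from -0.77 to 0.14 (Atm) and -0.24 to 0.14 (Mre11a). The difference of responses ran from -0.16 to 0.83 (Atr), 0.00 to 0.64 (Nbn), -0.53 to 0.50 (Chek1) and -0.12 to 0.24 (Chek2). Genotype differences ran in nonirradiated cells from -0.34 to 0.61 (Atr), -0.30 to 0.19 (Nbn), -0.57 to 0.10 (Chek1) and -0.22 to 0.14 (Chek2). In irradiated cells they ran from -0.09 to 0.43 (Mre11a), -0.29 to 0.63 (Rad50), -0.02 to 0.58 (Nbn), -0.13 to 0.28 (H2ax), -0.09 to 0.21 (Trp53bp1), -0.65 to 0.34 (Chek1) and -0.10 to 0.17 (Chek2).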
